A study of Mus musculus with 10 samples.

Results

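The transcripts described here belong to the antibody-making programme: the chains of immunoglobulin and the genes that mark or equip plasma cells, the cells that secrete antibody. The 9 genes are Jchain, Ighm, Igkc, Iglv1, Mzb1, Pou2af1, Derl3, Sdc1 and Tnfrsf17, of 19324 genes that the array annotation names, and every probe set whose annotation names any of them was taken, alone or with others. This gave 31 probe sets of 45037, of which 23 name 1 gene and 8 name several. The genes were chosen by the me against WT values of these arrays, where Jchain and Ighm were higher with homozygous loss of SHP-1, so their me against WT values are a description and carry no test.

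An antibody is built from heavy chains (Ighm encodes that of IgM) and light chains (Igkc for kappa, Iglv1 and Iglc1 for lambda), and Jchain joins IgM or IgA units into polymers. A B cell that becomes a plasma cell turns up these chains by a large factor, along with chaperones of the endoplasmic reticulum, and puts Sdc1 (CD138) and Tnfrsf17 (BCMA) on its surface. T cells do not make antibody. In mice the plasmacytoid dendritic cell also transcribes Jchain.

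RNA came from CD4+CD25+ T cells, among which regulatory T cells are found, taken with an isolation kit from the combined lymph nodes of BALB/c mice 17 to 19 days old and neither treated nor cultured, and was amplified from 20 ng before hybridisation to Affymetrix arrays. The 3 groups were mice homozygous for the SHP-1 knockout with the motheaten phenotype (me, 3 arrays), mice heterozygous for it (he, 3 arrays) and wild type mice (WT, 4 arrays). SHP-1, encoded by Ptpn6, is a tyrosine phosphatase that restrains signalling in blood cells, and its loss in every cell gives an inflammatory disease, so the cells that surrounded the T cells were mutant too. Arrays are labelled biological replicates, and no label says whether an array stands for 1 mouse or a pool, so p-values measure only the spread between these samples.

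Values are log2(intensity + 32) after quantile normalisation. On this scale the lower quartile of all values was 7.27, the median was 7.62 and the upper quartile 8.36. The lowest value was 6.76, and with no detection calls a value near 7 cannot be told from background. The array medians of the deposited intensity were 148 to 188 in me, 150 to 180 in he and 148 to 185 in WT. Ptpn6 was 8.84, 9.08 and 9.05 in me, 9.30, 9.33 and 9.54 in he, and 9.55, 9.63, 9.83 and 9.81 in WT, so the groups kept the order of their labels without overlap. Foxp3, the transcription factor of regulatory T cells, lay between 10.60 and 11.58 on every array, and Cd4 lay between 9.23 and 9.62 and Il2ra (CD25) between 10.00 and 10.64, so the markers of the labelled fraction were present. The arrays formed 2 sets by correlation: A (me 1, me 3, he 1, WT 1 and WT 2) and B (me 2, he 2, he 3, WT 3 and WT 4). Correlation across probe sets was 0.970 to 0.996 within and 0.854 to 0.944 between sets, and me 3 was the array of set A nearest to set B, with a mean correlation of 0.929 with it. By set, the array medians of the deposited intensity were 148 to 154 in A and 176 to 188 in B. What made the sets is not stated, and differences of the 9 genes are also given within them. The ratio of the 3' to the 5' Gapdh control probe sets, a measure of RNA quality, was 9.92 to 13.8 in me, 7.88 to 9.71 in he and 7.84 to 9.53 in WT; its part in the results was not tested.

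Jchain had the largest me minus WT difference. Its log2 values were 9.82, 7.96 and 10.14 in me, 7.21, 7.16 and 7.04 in he, and 7.06, 7.10, 7.11 and 7.03 in WT. All 3 me arrays were above every he and WT array, while he and WT stayed within 0.2 of each other in the range near background. The deposited intensity gives the same picture on a linear scale, with 1090.3, 245.8 and 1038.0 in me, 109.8, 115.1 and 97.9 in he, and 98.2, 102.8, 111.9 and 100.5 in WT. Thus me 1 was 10.5 times, me 2 was 2.38 times and me 3 was 10.0 times the WT mean, which is near background, so these ratios are of measured intensity and not of RNA. Between me and WT the difference was 2.23 ± 0.43 on the log2 scale (SE of the fit), the largest of 45037 probe sets, and the me minus he difference was 2.17 ± 0.46. In bulk RNA, more cells that express a gene and more RNA per cell cannot be told apart, and this holds for each gene below.

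The heavy chain of IgM was higher in me at its 2 brightest probe sets. At its brightest probe set (1427351_s_at) Ighm was 13.01, 11.77 and 13.56 in me, 11.49, 11.07 and 11.40 in he, and 11.42, 11.42, 10.65 and 11.21 in WT. The me minus WT difference was 1.60 ± 0.38. At the second probe set (1427329_a_at) the values were 10.63, 9.96 and 11.17 in me, 9.47, 9.53 and 9.82 in he, and 9.43, 9.37, 9.07 and 9.59 in WT, a difference of 1.22 ± 0.25. Unlike Jchain, Ighm was well above the upper quartile in WT already, so the me arrays were higher than a baseline that every genotype had. The array names Ighm for 15 probe sets, and these 2 were the only ones with a difference above 1. The other 13 differed by less than 0.25 in either direction, mostly at levels near 7, and 4 of the 15 name another heavy chain segment as well. One of these, 1427851_x_at (Ighv1-72;Ighm), was lower in every me array than in every WT array, by a difference of -0.11 ± 0.05, against a background of 0.835% of all probe sets that were lower in this way.

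The kappa light chain was higher at all 3 of its probe sets, each of which names Igkc together with Igkv6-23, Igkv4-53, Igkv8-30 and Igkj1. At the brightest (1427660_x_at) the values were 13.21, 12.21 and 13.42 in me, 11.60, 10.88 and 11.79 in he, and 11.43, 11.84, 10.39 and 11.91 in WT, a me minus WT difference of 1.56 ± 0.43. The other 2 probe sets differed by 1.91 ± 0.38 (1427455_x_at) and 1.39 ± 0.54 (1452417_x_at), and at the last of these me 2 lay below WT 2 (11.25). WT arrays themselves spread widely here, with an SD of 0.70 at the brightest probe set against 0.04 for Jchain. These are cross-hybridising designs (the ending _x_at), so kappa segments cannot be told apart.

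The lambda chain split the me arrays. At the probe set shared by Iglc1 and Iglv1 (1424931_s_at) the values were 9.28, 7.18 and 9.23 in me, 7.17, 7.0 and 7.11 in he, and 7.20, 7.10, 6.97 and 7.0 in WT. Here me 1 and me 3 were far above all other arrays, while me 2 lay among the WT values, and the me minus WT difference was 1.49 ± 0.44. Of the 3 probe sets that name Iglv1 alone, 1430523_s_at differed by 0.36 ± 0.08, or by 0.44 within set A and 0.29 within set B. Its values were 7.64, 7.73 and 7.76 in me, 7.30, 7.43 and 7.37 in he, and 7.18, 7.34, 7.52 and 7.37 in WT. The remaining 2 differed by 0.44 ± 0.21 and 0.02 ± 0.06, and their me and WT arrays overlapped.

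**Figure D1:**
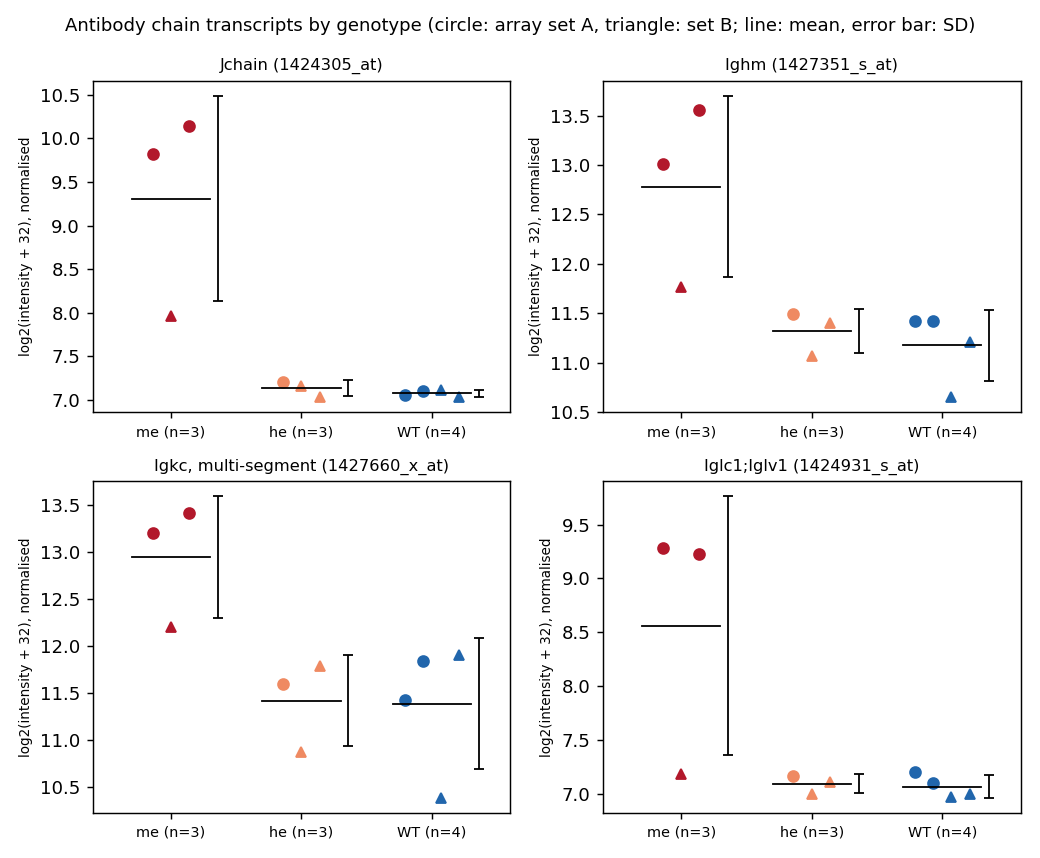
Log2(intensity + 32) of Jchain, Ighm, Igkc and Iglc1;Iglv1 at 1 probe set each, 1 point per array, for me (n = 3), he (n = 3) and WT (n = 4); circles are array set A and triangles set B, lines are means and error bars SD. In each panel 2 me arrays lie well above all he and WT arrays, and me 2, the triangle, is the lowest me array; for Iglc1;Iglv1 it lies at 7.18, among the WT values.

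Of the genes that mark or equip the plasma cell, none differed by as much as 1 between me and WT. Mzb1, a chaperone of the endoplasmic reticulum that helps assemble IgM, was 7.78, 7.94 and 8.15 in me, 7.56, 7.74 and 7.68 in he, and 7.77, 7.56, 7.76 and 7.64 in WT. The me minus WT difference was 0.28 ± 0.10, and the lowest me array and the highest WT array differed by only 0.01. Pou2af1 (OCA-B), the coactivator that works with octamer-binding factors at immunoglobulin promoters, was 8.31, 8.49 and 8.61 in me, 8.25, 8.55 and 8.12 in he, and 8.14, 8.33, 8.62 and 8.07 in WT. Its difference of 0.18 ± 0.15 lay within the spread of the WT arrays, whose SD was 0.25, and was 0.23 within set A and 0.15 within set B.

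Derl3, which takes part in the removal of misfolded proteins from the endoplasmic reticulum and is induced by the factor XBP1, had the opposite sign. Its values were 8.04, 8.79 and 8.13 in me, 8.02, 8.65 and 9.19 in he, and 8.13, 8.28, 8.91 and 8.95 in WT, a difference of -0.25 ± 0.32. Every set B array was above every set A array. The sets were formed by clustering these same arrays, and the share of all probe sets separated in this way was not counted, so nothing is read from it. Within sets the me minus WT difference of Derl3 was -0.12 in A and -0.14 in B. Sdc1, the surface proteoglycan by which plasma cells are sorted, was 7.90, 7.89 and 7.78 in me, 8.11, 8.04 and 7.21 in he, and 8.06, 8.01, 7.85 and 7.41 in WT at its brightest probe set. The 4 Sdc1 probe sets differed by 0.03 to 0.09 between me and WT, each less than its SE, and at the brightest the difference was -0.19 within set A and 0.26 within set B. Tnfrsf17, the receptor for the survival factor APRIL, was 7.22, 7.07 and 7.09 in me, 7.17, 7.12 and 7.13 in he, and 7.14, 7.20, 7.09 and 7.06 in WT. Its difference of 0.01 ± 0.06 was smaller than its error (-0.01 within set A and 0.00 within set B), at a level near background in all groups.

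**Figure D2:**
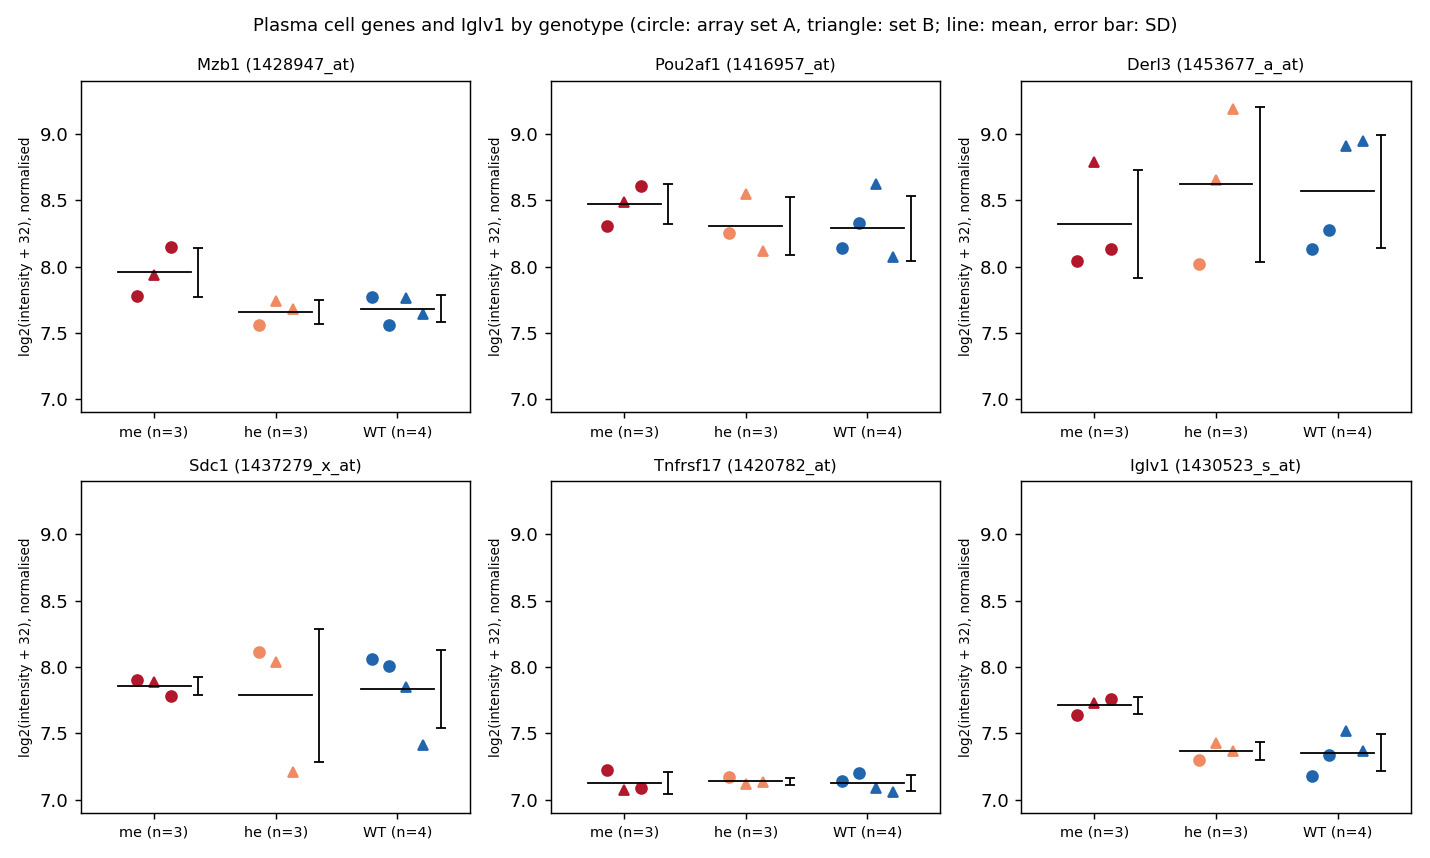
Log2(intensity + 32) of Mzb1, Pou2af1, Derl3, Sdc1, Tnfrsf17 and of Iglv1 at 1 of the 3 probe sets that name it alone (1430523_s_at). There is 1 point per array on a common scale, for me (n = 3), he (n = 3) and WT (n = 4). Circles are set A and triangles set B, lines are means and error bars SD. Iglv1 and Mzb1 have all me points above all WT points, by 0.36 and 0.28 on average, and the other 4 genes overlap.

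The start regions of Jchain, the gene with the largest difference, and of Derl3, which did not share it, are shown because the factors named above act through short motifs. Start regions of 5 of the 9 genes were at hand, from RefSeq (GRCm38.p6). The 250 bases before each start follow 5' to 3', Jchain from chr5:88527898-88528147 on the minus strand and Derl3 from chr10:75893148-75893397 on the plus strand. Capitals mark CCACG or its reverse complement CGTGG, the core bound by XBP1.
Jchain: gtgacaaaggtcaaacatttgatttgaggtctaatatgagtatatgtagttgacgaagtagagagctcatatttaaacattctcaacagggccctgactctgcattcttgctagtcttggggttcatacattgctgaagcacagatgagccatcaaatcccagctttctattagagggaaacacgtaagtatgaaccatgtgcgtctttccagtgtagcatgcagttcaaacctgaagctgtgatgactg
Derl3: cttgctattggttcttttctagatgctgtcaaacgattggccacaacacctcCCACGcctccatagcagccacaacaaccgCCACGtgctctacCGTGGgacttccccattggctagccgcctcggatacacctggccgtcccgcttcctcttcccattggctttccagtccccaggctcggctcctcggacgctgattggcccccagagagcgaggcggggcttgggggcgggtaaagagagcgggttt

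Derl3 holds this core 3 times, Pou2af1 2 times and Sdc1 1 time, and Jchain and Tnfrsf17 hold it 0 times. Searched on both strands, it is in 28.3% of 32851 such regions. The octamer ATGCAAAT, the motif through which Pou2af1 acts, is in 1.6% of them and in 0 of these 5. The start regions of Ighm, Igkc, Iglv1 and Mzb1 were not analysed here.

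Read across the 31 probe sets, 7 had every me array above every WT array, against a background of 0.802% of all probe sets. They were the Jchain probe set, 2 of Ighm, 2 of Igkc, 1 of Iglv1 and that of Mzb1. Between me and he, 11 had every me array higher (background 1.61%), the same 7 among them, and the 2 comparisons share the me arrays. Since the genes were picked for the me values, nothing is read from these counts. In the deposited intensities, before normalisation, 5 probe sets had every me array above every WT array, and these were not all among the 7. The share of all probe sets on that scale was not counted, so nothing is read from the 5 either. At Ighm (1427351_s_at) me 2 had 2712.7, between the WT values of 4083.7, 3198.8, 1275.9 and 2100.2. The first 2 of these are from set A. Igkc (1427660_x_at) overlapped too, with me 2 at 3656.2 and WT 2 at 4508.6. So did Iglv1 (1430523_s_at), with me 1 at 150.6 and WT 3 at 165.9, and Mzb1, with me 1 at 169.2 and WT 3 at 203.3. At the probe set shared by Iglc1 and Iglv1, me 2 had 117.8, above the highest WT value of 109.4 (WT 1).

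**Figure D3:**
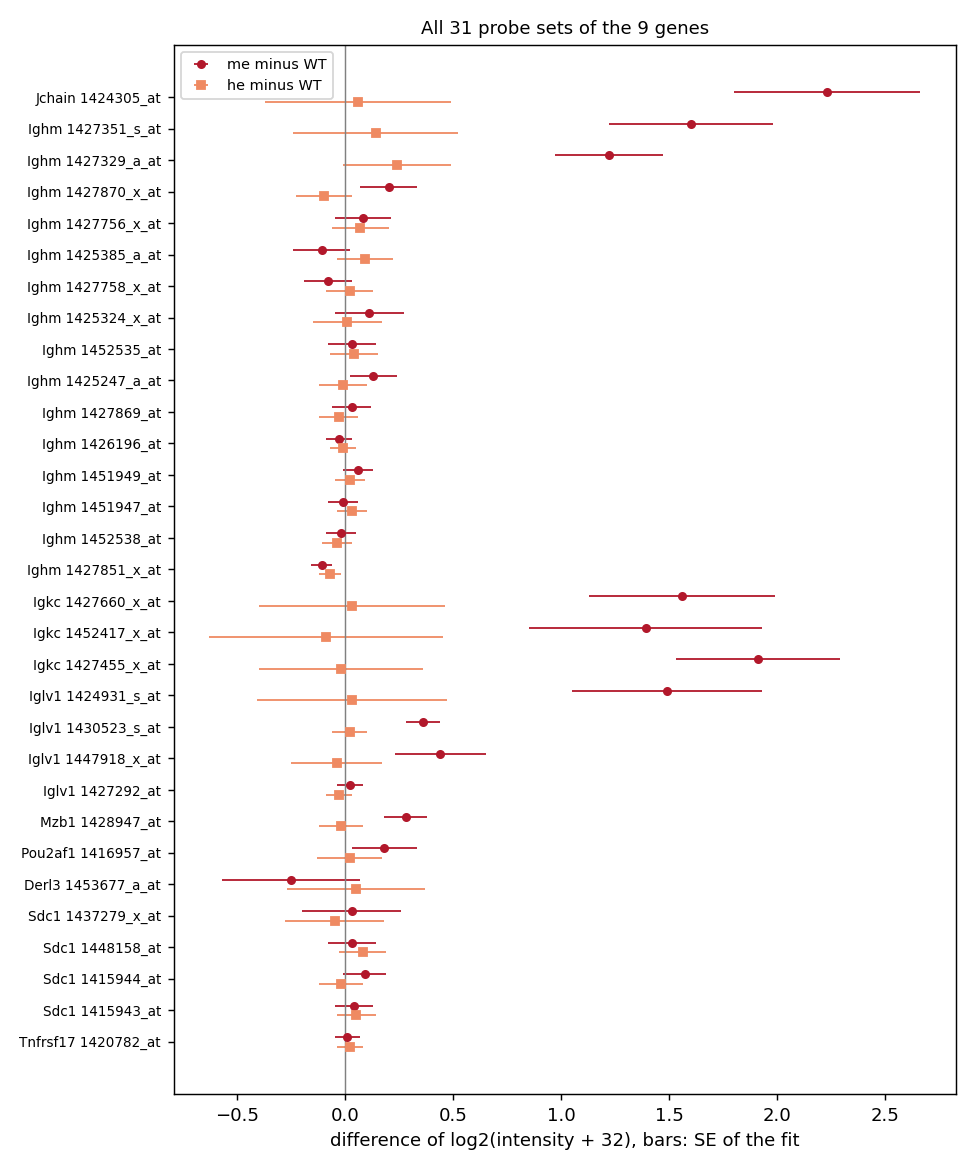
Differences of log2(intensity + 32), me minus WT (circles) and he minus WT (squares), for all 31 probe sets, with the SE of the fit as bars. The me differences run from 2.23 for Jchain to -0.25 for Derl3, and all he differences lie within 0.24 of 0.

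The 3 me arrays did not carry the antibody transcripts equally. Set against the WT mean of its own array set, Jchain was higher by 2.74 in me 1, 0.89 in me 2 and 3.06 in me 3. Ighm at its brightest probe set was higher by 1.59, 0.84 and 2.14, Igkc by 1.58, 1.06 and 1.79, and Iglc1;Iglv1 by 2.12, 0.19 and 2.08. The array me 2 had the smallest excess at 6 of the 7 probe sets without overlap, and me 3 had the largest at all 7. These 7 are set apart by their me values, and the share over all probe sets was not counted, so these counts are no result. At Iglc1;Iglv1, which is not among the 7, the excess was largest in me 1. Within set A the me minus WT difference of Jchain was thus 2.90, against 0.89 within set B, where me 2 is the only me array, so the array and the set cannot be told apart. Without me 2, Jchain differed from WT by 2.93 and Iglc1;Iglv1 by 2.19, and without me 3 by 1.83 and 1.16. Mzb1 was higher by 0.12, 0.25 and 0.49, and was 0.18 without me 3.

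**Figure D4:**
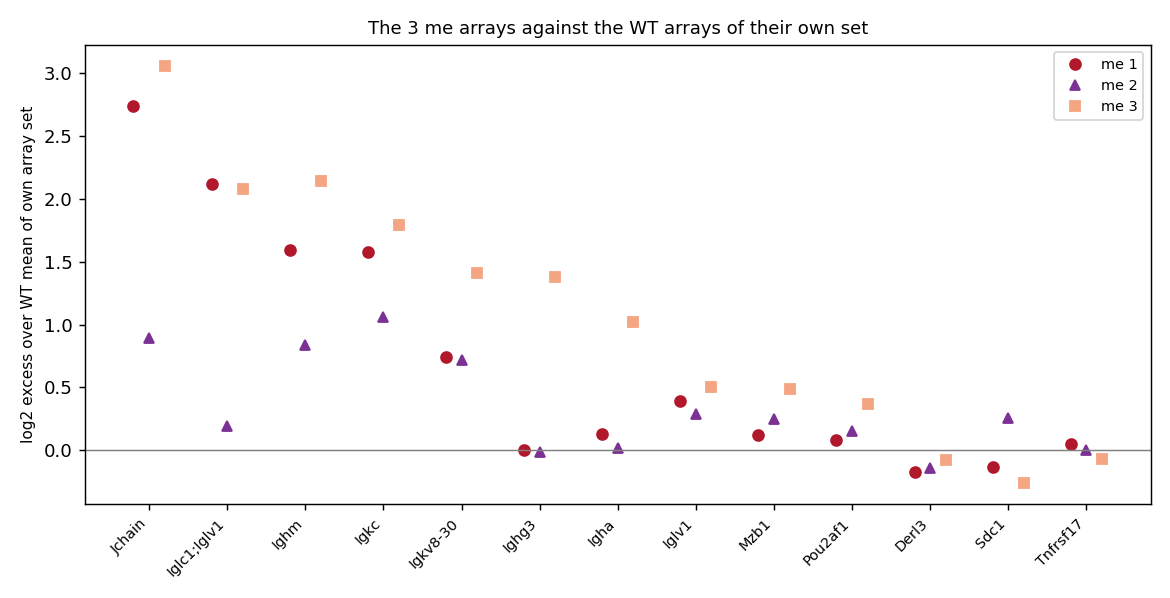
Excess of each me array in log2(intensity + 32) over the WT mean of its own array set (me 1 and me 3 against WT 1 and WT 2, me 2 against WT 3 and WT 4), for antibody chains on the left and other genes on the right. For Jchain the excess is 2.74, 0.89 and 3.06; Ighg3 and Igha are higher in me 3, at 1.38 and 1.02, than in me 1, at 0.00 and 0.13, or me 2, at -0.01 and 0.02.

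Besides the 31, 30 probe sets name other immunoglobulin segments, among them class-switched heavy chains, which replace that of IgM when a B cell changes isotype. At 1 of 4 Ighg3 and 3 of 3 Igha probe sets, me 3 was above all other arrays, though at the third Igha probe set only narrowly. How often me 3 was the highest array over all probe sets was not counted, so these counts are a description only. Ighg3, the heavy chain of IgG3, was 7.69, 7.66 and 9.07 in me, 7.67, 7.58 and 7.63 in he, and 7.68, 7.69, 7.71 and 7.63 in WT at 1427503_at. Igha, that of IgA, was 7.52, 7.19 and 8.42 in me, 7.40, 7.28 and 7.31 in he, and 7.40, 7.38, 7.15 and 7.19 in WT at 1425763_x_at, and its probe set 1421653_a_at was likewise high in me 3 alone (8.16). Against the WT mean of its own set, Ighg3 was thus higher by 1.38 in me 3 and by 0.00 in me 1, and Igha (1425763_x_at) by 1.02 and 0.13, although Ighm was high on both arrays. At the other Ighg3 probe sets me 3 had 7.45, 6.88 and 6.94, each within the range of the other arrays or within 0.01 of it, and at the third Igha probe set it had 8.01, against 7.91 and 7.95 in WT 1 and WT 2. Igkv8-30, a kappa variable segment, was 9.19, 8.67 and 9.85 in me, 8.30, 7.84 and 8.17 in he, and 8.34, 8.55, 7.70 and 8.21 in WT, a me minus WT difference of 1.04 ± 0.29. The probe set for Igkv6-14, Igkv6-23 and Igkv8-19 differed by 0.35 ± 0.11. These 2 were the ones of the 30 with every me array above WT (0.802% of all probe sets), and the median me minus WT difference over the 30 was 0.02, against 0.00 over all probe sets.

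Heterozygous mice were tested against WT, since the he arrays played no part in the choice of genes. The WT arrays did take part in that choice, so the test is not fully independent of it. With limma, 0 of the 31 probe sets passed between he and WT (adjusted p = 1 for each), 0 had an unadjusted p under 0.05, and over all 45037 probe sets 0 passed (0%), with 134 (0.298%) at an unadjusted p under 0.05. With array set as a block 0 of the 31 passed as well (0% of all), and again 0 had an unadjusted p under 0.05 (2.13% of all). None of the 31 had every he array above every WT array (0.469% of all) or below (0.573% of all). The difference was 0.06 for Jchain, with a 95% interval of -0.92 to 1.04, 0.14 for Ighm (-0.72 to 1.01) and 0.03 for Igkc (-0.95 to 1.01). When arrays were centred on their medians in place of quantile normalisation, the difference was -0.10 for Ighm and -0.24 for Igkc, so neither sign is settled. The SE for Jchain is set by the spread of the me arrays: in a fit of he and WT alone its interval was -0.11 to 0.23. A 2-sided exact permutation test gave p = 0.314 for Jchain and p = 0.629 for Ighm, with 0.0571 the smallest p that 3 against 4 arrays allow. All 3 he arrays were female by Xist and Eif2s3y, as were me 3, WT 1 and WT 3, while me 1, me 2, WT 2 and WT 4 were male. The part of sex in these differences was not tested.

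Genes known to build the plasma cell, were listed apart from the 9. Of 29 measured, 20 were higher and 9 lower in me than in WT, with a median difference of 0.04, against 9113 higher and 9080 lower of 18193 genes, with a median of 0.00. Between me and WT limma called 0 of these genes and 0 of all 45037 probe sets (0%), so that the 0 called in each list below is no result about it. At an unadjusted p under 0.05 there were 282 (0.626% of all). A block for array set left 0 of the 29 passing, and 0.00666% of all probe sets. The 3 transcription factors that drive the programme are also made by T cells. Prdm1 (Blimp-1) was 8.99, 8.0 and 8.96 in me, 8.82, 7.92 and 8.49 in he, and 8.81, 8.57, 7.64 and 8.28 in WT, a difference of 0.33 ± 0.35. Xbp1 differed by 0.03 ± 0.23 and Irf4 by 0.02 ± 0.19, with overlapping arrays. Slamf7, a surface receptor of plasma cells and other lymphocytes, differed by -0.23 ± 0.14, Trp53inp1 by 0.23 ± 0.16 and the integrin subunit Itga4 by 0.26 ± 0.27. The median of this list was -0.03 without me 1 and 0.16 without me 2, so its sign rested on single arrays. Between he and WT, 11 of the 29 were higher and 18 lower, with a median of -0.06 and 0 passing.

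Markers of B cells, the precursors of plasma cells, were split. Of 26 measured, 15 were higher and 11 lower in me than in WT, with a median of 0.06, and 0 passed. Ms4a1 (CD20) was 7.93, 8.21 and 8.13 in me, 7.27, 7.85 and 7.66 in he, and 7.47, 7.34, 7.98 and 7.72 in WT, a difference of 0.46 ± 0.18, or 0.52 ± 0.10 with array set as a block. The me 1 array was below WT 3 of the other set. Within each set every me array was above both WT arrays, as was the case for 4.35% of all probe sets. Spib, a transcription factor of B cells and plasmacytoid dendritic cells, differed by 0.39 ± 0.15 and Cd74, the invariant chain of MHC class II, by 0.38 ± 0.20. Cd79a, the signalling chain of the B cell receptor, differed by 0.10 ± 0.10, at 7.11 to 7.48 over all arrays, and Blk, a kinase of B cells and some T cells, by -0.57 ± 0.23. The summed deposited intensity of the B cell list was 5710 to 7860 in me, 5150 to 7190 in he and 5250 to 7640 in WT, so the groups overlapped.

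Of 13 measured markers of plasmacytoid dendritic cells, 7 were higher and 6 lower in me, with a median of 0.02 (-0.04 to 0.03 when 1 array was left out) and 0 passing. Siglech, the receptor that defines these cells in mice, was 7.41 to 7.53 on all arrays and differed by 0.02 ± 0.06. Tcf4, the factor that drives them, was 8.57, 8.55 and 8.29 in me, 8.14, 8.16 and 7.72 in he, and 8.0, 8.18, 7.93 and 8.0 in WT, a difference of 0.44 ± 0.13. Irf8 differed by -0.27 ± 0.26, Cox6a2 by -0.29 ± 0.24 and Ccr9 by 0.20 ± 0.58. The summed intensity of the list was 2650 to 3410 in me, 2850 to 3240 in he and 2800 to 3460 in WT. Neutrophil and monocyte markers were higher for 16 of 17, with a median of 0.09 (0.18 without me 1) and 0 passing, and S100a8, a calprotectin subunit, was 7.43, 7.87 and 8.10 in me, 7.32, 7.21 and 7.24 in he, and 7.20, 7.26, 7.23 and 7.25 in WT. The summed intensity of that list was 3730 to 4410 in me, 3450 to 4020 in he and 3180 to 3920 in WT. The medians of the T cell, erythroid and CD8 T and NK cell lists were 0.13 (11 measured), -0.06 (5 measured) and 0.11 (9 measured), with 0 passing in each. Leaving out 1 array moved them to between 0.07 (without WT 1) and 0.15 (without WT 4), between -0.11 (without me 3) and -0.01 (without me 1), and between 0.01 (without WT 2) and 0.21 (without me 1). Ctla4, an inhibitory receptor, and Cd5, a surface regulator of T cells, differed by 0.67 ± 0.35 and 0.35 ± 0.12, and Gzmb, a cytotoxic granzyme, by 0.60 ± 0.36. Cd8a, a chain of the CD8 coreceptor, went by array set: it was 12.38 in me 2, 11.34 and 12.45 in he 2 and he 3, and 12.10 and 12.13 in WT 3 and WT 4, against 7.54 to 7.76 on the 5 arrays of set A, while Cd8b1, its partner chain, was 7.38 to 7.80 on all arrays. The part of these cells in the antibody transcripts was not tested.

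**Figure D5:**
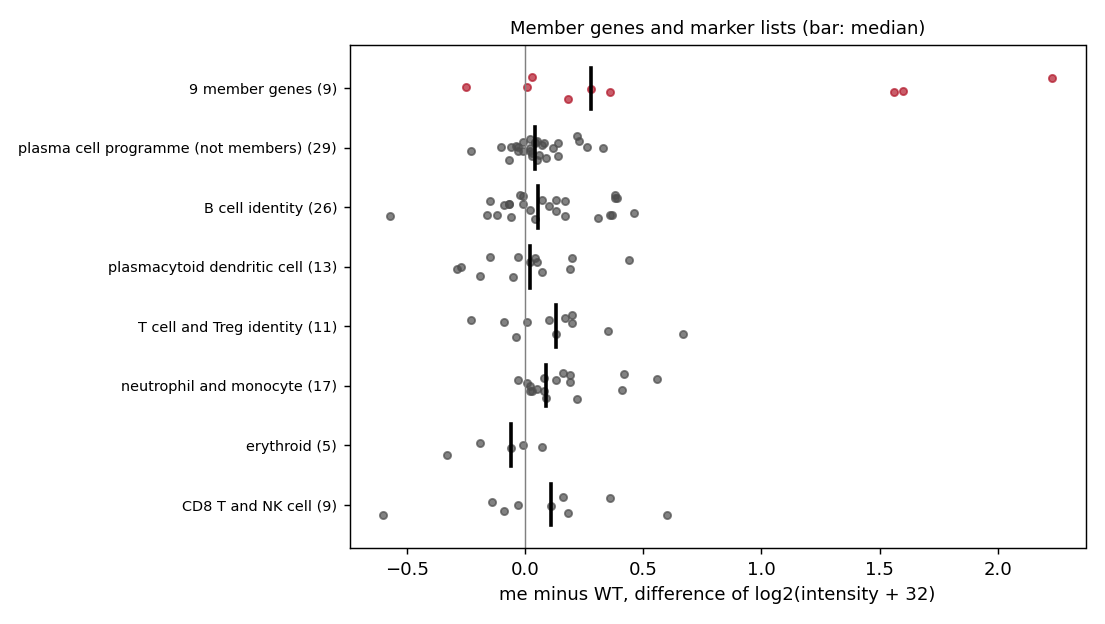
Difference of log2(intensity + 32), me minus WT, for the 9 genes at 1 probe set each (top row) and for the measured genes of 7 marker lists, with bars at the medians; vertical scatter has no meaning. Jchain, Ighm and Igkc lie at 2.23, 1.60 and 1.56, beyond every gene of the marker lists, and the plasma cell list centres on 0.04.

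Likeness to Jchain and Ighm was described across the 10 arrays. After the mean of each array set was removed, Pearson's r with Jchain was 0.98 for Iglc1;Iglv1, 0.96 for Ighm, 0.81 for Igkc, 0.79 for Mzb1 and 0.48 for Pou2af1, against -0.23 for Derl3 and -0.21 for both Sdc1 and Tnfrsf17. With the set means kept, the coefficient was 0.07 for Sdc1 and 0.17 for Tnfrsf17, so their sign came from that step. These coefficients describe 10 points that share their arrays and rest largely on the 3 me arrays. Group means were kept, and the genes were chosen for their me values, so a high r among them is no separate result. Among 11378 genes at or above the median level, those closest to Jchain after Ighm were Ly86 (MD-1), which pairs with a Toll-like receptor relative on B cells and myeloid cells, at r = 0.95, Cebpa, a myeloid transcription factor, at 0.95, the granzyme gene Gzmk at 0.93 and Ms4a1 at 0.92. Serpinb6a, Nap1l4, Aoc1, Atg16l2 and Gjb2 followed at 0.90 to 0.91. For Ighm the closest were Igkv8-30, Ly86, the lipid droplet gene Plin2 and Jchain, each at 0.96, then the interferon-induced Oas1a at 0.95 and Il1r2, the decoy receptor for interleukin 1, at 0.92. Serpinb6a, Slc17a5 and Arl2bp were at 0.92 and Hmgn3 at 0.91. Without removing the set means the coefficient was 0.92 for Ly86 and 0.57 for Ms4a1 with Jchain, but -0.20 for Serpinb6a, -0.09 for Aoc1, 0.00 for Gjb2 and 0.25 for Nap1l4. With Ighm it was 0.23 for Oas1a, 0.10 for Slc17a5, -0.34 for Serpinb6a and -0.41 for Arl2bp, so the likeness of these genes rests on that step.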

How the data were processed

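The authors deposited 1 linear intensity per probe set and array, for 10 arrays. How probe signals were summarised, corrected and scaled is not given in the sources used here. The values ran to different medians per array, so they were taken as not normalised between arrays. The 64 control probe sets among the 45101 were set aside. A pseudocount of 32 was added, log2 was taken and arrays were quantile normalised, so a fold change of a dim gene is understated. Genes were named from the platform annotation, which can be old: 34945 probe sets name 1 gene, 932 several and 9160 none. A gene with several probe sets is represented by the brightest, among those naming it alone where there is one.

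Groups followed the labels. All 10 arrays were fitted in limma 3.58.1 (R 4.3.3) with no block, and p-values were adjusted by Benjamini-Hochberg over 45037 probe sets at 0.05. The fit was tested on simulated data. With 7 residual degrees of freedom, the number of arrays limits the precision. Array sets came from average-linkage clustering. From each marker list up to 4 genes with the largest absolute me minus WT difference were named, with a few defining markers. For likeness, the 10 closest genes were named, and of other immunoglobulin probe sets the 6 with the largest difference. The genes and lists were chosen with earlier results of these data known. Alternatives covered normalisation, pseudocount, a low-value filter, blocks, array weights and leaving out each array. Start regions came from RefSeq.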

Additional observations from a re-analysis of the deposited data

How the results depend on the processing

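Over all settings run, the me minus WT difference stayed above 0 for Jchain (0.89 to 3.04), Ighm (0.84 to 2.33), Igkc (1.06 to 1.96), Iglc1;Iglv1 (0.19 to 2.19) and Mzb1 (0.18 to 0.46), and the low ends of the first 4 are those within array set B. It also stayed above 0 for Iglv1 (0.24 to 0.44) and Pou2af1 (0.11 to 0.33), and below 0 for Derl3 (-0.49 to -0.07). All settings drew on the arrays by which the genes were chosen, so a kept sign is no test. Leaving out 1 array at a time gave 1.83 to 2.93 for Jchain and 1.22 to 2.12 for Ighm. The count of probe sets called between me and WT, 0 with all arrays and no block, was 3 with array set as a block (2 for Socs2 and 1 for Tesc, none of the 31), 2 with array weights, and 0 to 5 over the fits that left out 1 array. Between me and he it was 0 to 2 over those fits and 27288 with array weights, where the estimation of the weights stopped before its tolerance and gave weights of 0.268 to 26.6. The 2 called in both comparisons without me 2, those of Jchain and Iglc1;Iglv1, were chosen on these values, so the count is no test of them. Between he and WT it was 0 in each setting, and the adjusted p of the representative probe sets ran from 0.426 to 1.

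The small he minus WT differences changed sign with the setting, and the cause was not tested. With no normalisation they were -0.08 for Ighm, -0.22 for Igkc and -0.02 for Derl3, and with median centring -0.10, -0.24 and -0.03. With array weights they were -0.09 for Ighm, -0.48 for Igkc, 0.05 for Mzb1, 0.18 for Sdc1 and -0.05 for Iglc1;Iglv1. With array set as a block Derl3 was -0.07, and with me 3 counted in set B Iglv1 was -0.01, Derl3 -0.06 and Sdc1 0.01. Leaving out 1 array, with no block, gave -0.03 to 0.27 for Ighm, -0.30 to 0.30 for Igkc, -0.01 to 0.07 for Iglc1;Iglv1, -0.04 to 0.07 for Iglv1, -0.06 to 0.03 for Mzb1, -0.11 to 0.13 for Pou2af1, -0.24 to 0.34 for Derl3 and -0.21 to 0.24 for Sdc1. With array set as a block it gave -0.18 to 0.49 for Igkc, with -0.15 without he 3, -0.06 to 0.02 for Mzb1, -0.11 to 0.14 for Pou2af1, -0.04 to 0.04 for Iglv1, -0.24 to 0.04 for Derl3 and -0.17 to 0.24 for Sdc1, where values above 0 included 0.02 without WT 1 and 0.08 without WT 3. With the replicate block 0 probe sets were called in each of the 3 comparisons, and Pou2af1 was -0.05 between he and WT. Arrays of the same number correlated from -0.87 to 0.94 in their deviations from group means, so the numbers do not pair the samples, although the 3 arrays numbered 1 (0.90 to 0.94) all lie in set A. No detection calls were used, so values near 7 give no lower bound on expression.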

Other observations

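Several kappa variable segments were separated by array set and not by genotype, and they were singled out after their values were seen. The sets were formed by clustering these same arrays, and the share of all probe sets separated in this way was not counted. The separation was not particular to kappa segments: Cd8a, Derl3 and the MHC class II gene H2-Ab1 were also higher on every array of set B. At 1 of 2 probe sets Igkv19-93 was 7.16, 10.37 and 8.47 in me, 7.24, 10.40 and 10.53 in he, and 7.28, 7.22, 10.49 and 10.37 in WT. Every array of set B lay between 10.37 and 10.53, and every array of set A except me 3 between 7.16 and 7.28. At its other probe set all arrays lay between 7.60 and 7.91. A probe set of Igkv6-14 was 7.01 to 7.61 in set A and 8.17 to 8.72 in set B, Igk-V21 was 7.01 to 7.22 and 7.92 to 8.21, Igkv4-68 was 7.18 to 7.84 and 8.23 to 8.51, and Igkv6-20 was likewise higher on every array of set B than on every array of set A. The value of me 3 for Igkv19-93, 8.47, lay between those of the sets. At the Jchain probe set he and WT arrays of both sets lay between 7.03 and 7.21. That is near background, where a separation by set could not show. Its me values were 9.82 (me 1) and 10.14 (me 3) in set A and 7.96 (me 2) in set B.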
